A study of Schizosaccharomyces pombe with 6 samples.

Results

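The data describe 10 genes of sugar breakdown and alcohol formation in the fission yeast *Schizosaccharomyces pombe*, read from a table of RNA-seq counts for 6988 loci. Their rows were found by systematic identifier: *pgi1* (SPBC1604.05), *fba1* (SPBC19C2.07), *tpi1* (SPCC24B10.21), *tdh1* (SPBC32F12.11), *gpd3* (SPBC354.12), *pgk1* (SPBC14F5.04c), *eno101* (SPBC1815.01), *pyk1* (SPAC4H3.10c), *adh1* (SPCC13B11.01) and *adh4* (SPAC5H10.06c). Poly(A)+ RNA came from *siw14*∆ cells, which lack the inositol pyrophosphatase Siw14 and carry the marker HygMX in its place, and from wild-type (WT) cells. Both were haploid strains of mating type h- in vegetative growth, harvested in log phase from YES medium at 30 °C, and each was sequenced as 3 biological replicates. Each genotype was 1 strain, so the deletion and any other difference between the strains cannot be told apart.

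Glycolysis splits glucose into pyruvate and gains ATP and NADH on the way. Fission yeast growing on ample glucose ferments most of the pyruvate, by way of acetaldehyde, to ethanol, and this last step returns NADH to NAD+ so that glycolysis can go on. The enzymes of the pathway are among the most abundant proteins of a yeast cell, and their genes carry a strong preference for certain codons.

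Library totals over genes ran from 12875286 to 14583056 counts. The deleted gene, *siw14* (SPBC17A3.03c), had a mean normalized count of 12.4 ± 1.65 in *siw14*∆ and 2392 ± 158 in WT (SD, n = 3 each). A normalized count here is the count scaled to a common effective library size by the TMM method of edgeR, which assumes that most loci do not differ. Fold changes are given as log2 of *siw14*∆ over WT, with the standard error (SE) and adjusted p from the quasi-likelihood test of edgeR over 5774 loci. The call threshold was an adjusted p of 0.05. Replicates of a genotype differed by more than counting noise, with a chi-square of 8.83 to 38.1 per degree of freedom, so none was a repeat of another.

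All 10 genes passed the low-count filter. Every 95% interval lay within 2-fold of no change, the lowest bound being −0.76 and the highest 0.54 on the log2 scale. None was higher in *siw14*∆, 2 were lower (*pgi1* and *adh4*) and 8 did not pass the test. Over all loci, 16.7% were called higher and 4.99% lower. Of the 10 log2 fold changes, 9 were negative and 1, that of *tdh1*, was positive, with a median of −0.13 against 0.01 over all loci tested. At an unadjusted edgeR p of 0.05, 3 of the 10 genes were lower and 0 higher, while 2373 of the 5774 loci tested passed it in either direction. The normalized counts of the *siw14*∆ and WT libraries did not overlap for 2 of the 10 genes (*pgi1* and *tpi1*), where 46.9% of all loci tested did not overlap.

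**Figure D1:**
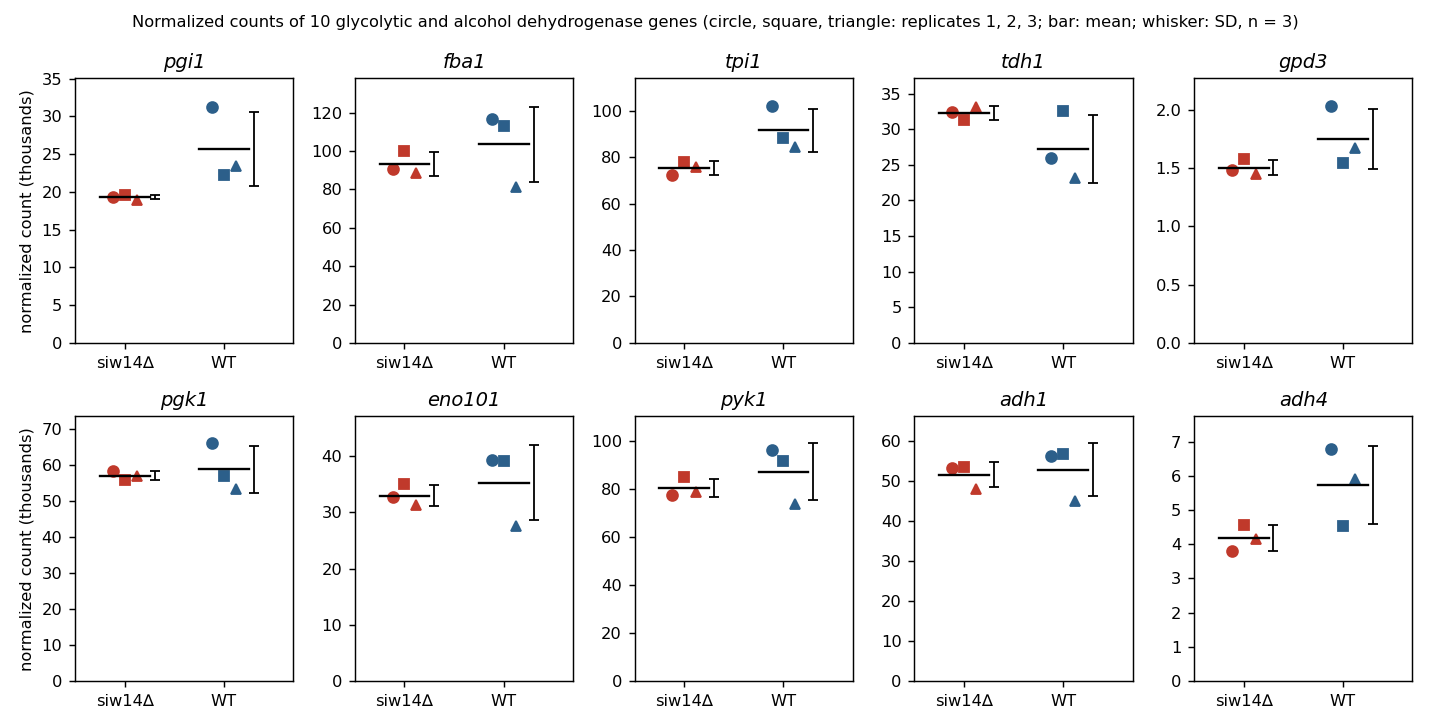
Normalized counts, in units of 1000, of the 10 genes in each library, with *siw14*∆ in red on the left and WT in blue on the right of each panel, the mean as a bar and the SD as a whisker (n = 3 each). The *siw14*∆ libraries lie close together, while WT replicate 1 is the highest WT library for 8 genes and WT replicate 3 the lowest for 7.

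Phosphoglucose isomerase, encoded by *pgi1*, turns glucose phosphate into fructose phosphate near the head of the pathway. It had 19313, 19579 and 18980 normalized counts in *siw14*∆ replicates 1, 2 and 3, against 31218, 22207 and 23444 in WT replicates 1, 2 and 3. Every *siw14*∆ library lay below every WT library, and WT replicate 1 stood well above the others. *pgi1* was lower in *siw14*∆ at 0.753 of the WT level, with a log2 fold change of −0.41 (SE 0.13, 95% interval −0.70 to −0.12, edgeR adjusted p = 0.049). Without WT replicate 1 the log2 fold change was −0.22 (edgeR adjusted p = 0.0648), and the call was also lost when WT replicate 3 or any 1 of the *siw14*∆ libraries was left out. The loci called lower in all fell from 288 to 48 without WT replicate 1 and 44 without WT replicate 3. Without any 1 of the *siw14*∆ libraries 1 locus was called lower. Over 15 alternative settings the adjusted p of *pgi1* ranged from 0.00652 to 0.260. The annotation places 2 transcribed loci on the opposite strand of *pgi1* exons, *noc4* over 16 bases and the noncoding SPNCRNA.1648 over 366 bases. SPNCRNA.1648 had 93, 113 and 96 counts in *siw14*∆, against 55, 77 and 93 in WT, a very small number beside those of *pgi1*. Such overlaps were not particular to *pgi1*: further antisense noncoding loci, not analysed here, cover 46.5% and 36.1% of the exon of *adh4*, 100% of those of *pgk1* and *adh1*, 60.8% for *pyk1*, 46.0% for *gpd3* and 7.90% for *fba1*.

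Fructose bisphosphate aldolase, the product of *fba1*, cleaves fructose bisphosphate into a pair of triose phosphates. It had 90424, 100132 and 88800 normalized counts in *siw14*∆, against 116525, 113228 and 81111 in WT. The WT libraries spread on both sides of the mutant ones, and the difference did not pass the test (log2 fold change −0.15, SE 0.15, 95% interval −0.49 to 0.18, edgeR adjusted p = 0.467).

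Triose phosphate isomerase, the product of *tpi1*, interconverts those triose phosphates. It had 72229, 78154 and 75814 normalized counts in *siw14*∆, against 102115, 88469 and 84528 in WT. The groups did not overlap, but the log2 fold change of −0.28 (SE 0.12, 95% interval −0.55 to −0.01) did not pass the edgeR test over all loci (adjusted p = 0.106). DESeq2 called *tpi1* lower (log2 fold change −0.32, DESeq2 adjusted p = 0.0159), beside 739 of all loci. The adjusted p of *tpi1* over the alternatives ranged from that value to 0.901.

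Glyceraldehyde phosphate dehydrogenase, the step that takes up inorganic phosphate and makes NADH, is encoded by the isozyme genes *tdh1* and *gpd3*. *tdh1* had 32421, 31262 and 33139 normalized counts in *siw14*∆, against 25933, 32574 and 23165 in WT. WT replicate 2 lay among the mutant libraries, while WT replicates 1 and 3 lay below them all. The log2 fold change was 0.25 (SE 0.13, 95% interval −0.04 to 0.54, edgeR adjusted p = 0.182). With WT replicate 2 left out it was 0.39 and passed the test (edgeR adjusted p = 0.0284, range over the alternatives 0.0213 to 0.372). That fit called 1204 of all loci higher. The minor isozyme gene *gpd3* had 1487, 1576 and 1449 normalized counts in *siw14*∆, against 2033, 1544 and 1671 in WT. Here too WT replicate 2 lay among the *siw14*∆ values, and the log2 fold change was −0.22 (SE 0.11, 95% interval −0.45 to 0.02, edgeR adjusted p = 0.151). Without WT replicate 2 it was −0.30 and passed the test (edgeR adjusted p = 0.0486, range over the alternatives up to 0.828). That fit called 717 of all loci lower.

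*tdh1* and *gpd3* are near copies. Their coding sequences in build ASM294v3 were identical at 940 of 1008 aligned bases (93.3%), and they shared 230 words of 51 bases, the length of a read. The other 8 genes held no 51-base word found elsewhere in the genome. Reads from the shared stretches could have been assigned to either gene or dropped, so the split between these isozymes is less certain than the other counts.

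Phosphoglycerate kinase, the product of *pgk1*, makes the first ATP of the lower pathway. It had 58427, 55961 and 56934 normalized counts in *siw14*∆, against 66179, 57019 and 53289 in WT. WT replicate 1 was above and WT replicate 3 below the mutant libraries, and the log2 fold change was −0.04 (SE 0.12, 95% interval −0.30 to 0.22, edgeR adjusted p = 0.805).

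Enolase, the product of *eno101*, forms phosphoenolpyruvate. Normalized counts of *eno101* were 32658, 35052 and 31233 in *siw14*∆, against 39263, 39161 and 27508 in WT. WT replicates 1 and 2 were nearly equal and above the mutant libraries, WT replicate 3 was below them, and the log2 fold change was −0.10 (SE 0.14, 95% interval −0.41 to 0.22, edgeR adjusted p = 0.626).

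Pyruvate kinase, the product of *pyk1*, ends glycolysis with pyruvate and a further ATP. It had 77827, 85052 and 78923 normalized counts in *siw14*∆, against 96309, 91731 and 73947 in WT. As for *eno101*, WT replicates 1 and 2 were on top and WT replicate 3 was at the bottom. The log2 fold change was −0.12 (SE 0.13, 95% interval −0.41 to 0.17, edgeR adjusted p = 0.530).

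Of the alcohol dehydrogenase genes, *adh1* encodes the main enzyme that reduces acetaldehyde to ethanol. It had 53252, 53624 and 48137 normalized counts in *siw14*∆, against 56475, 56960 and 45205 in WT. The groups overlapped, and the log2 fold change of −0.03 (SE 0.13, 95% interval −0.31 to 0.24, edgeR adjusted p = 0.858) was the nearest to 0 of the 10.

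*adh4*, which encodes an alcohol dehydrogenase of another family, had 3816, 4568 and 4148 normalized counts in *siw14*∆, against 6783, 4525 and 5923 in WT. WT replicate 2 lay below *siw14*∆ replicate 2, so the groups overlapped at that point, and the other WT libraries stood apart. *adh4* was lower in *siw14*∆ at 0.727 of the WT level (log2 fold change −0.46, SE 0.14, 95% interval −0.76 to −0.15, edgeR adjusted p = 0.0407). The call was lost when WT replicate 1 (log2 fold change −0.31, edgeR adjusted p = 0.115), WT replicate 3 (−0.40, adjusted p = 0.0949) or any 1 of the *siw14*∆ libraries was left out. Of all loci, these fits called 48, 44 and 1 lower, against 288 with all libraries. Over the alternatives the adjusted p of *adh4* ranged from 0.00482 to 0.179.

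**Figure D2:**
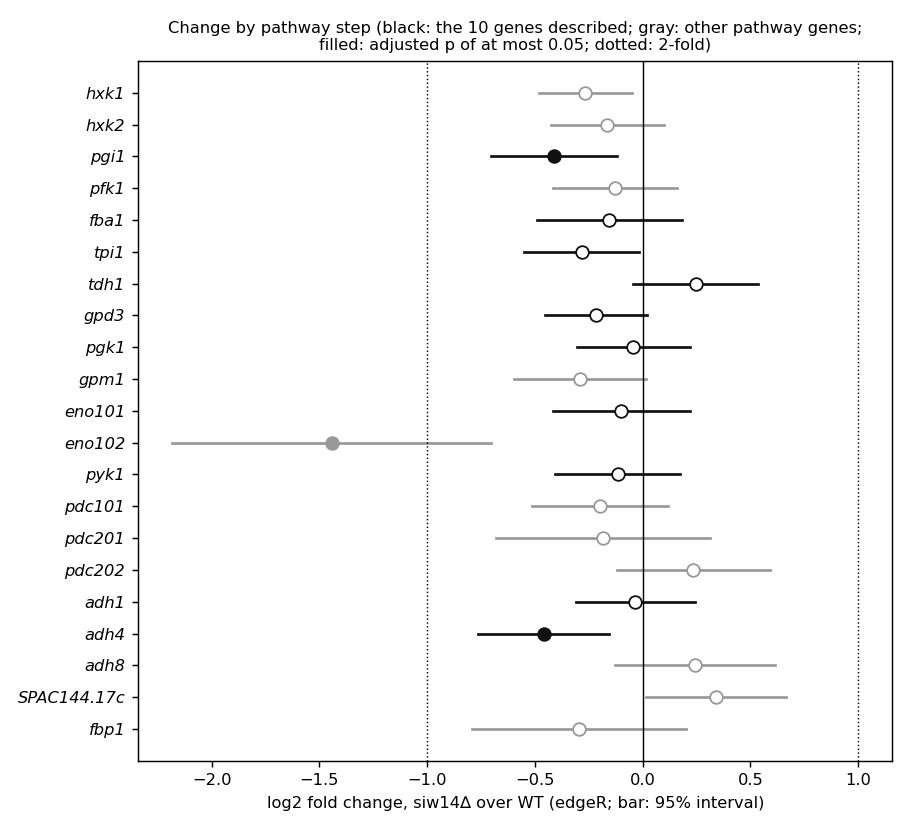
Log2 fold change of *siw14*∆ over WT (points) with its 95% interval (bars) for the 10 genes in black and the other genes of glycolysis and fermentation in gray, in pathway order from top to bottom, with filled points for an adjusted p of at most 0.05. The intervals of all 10 genes lie inside the dotted lines of 2-fold, and that of *eno102* reaches beyond.

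Genes of growth state were read beside these values. A list of 6 genes known to respond to glucose limitation, stress or late growth (*fbp1*, *ght5*, *hsp9*, *ctt1*, *tps1* and *ste11*) summed to 11194, 9245 and 11161 normalized counts in *siw14*∆, against 26502, 10247 and 22692 in WT. WT replicate 2 stood near the *siw14*∆ libraries in this sum, and 3 of the 6 genes were lower in *siw14*∆: *ght5*, a hexose transporter gene (log2 fold change −0.94, edgeR adjusted p = 0.0438), *hsp9*, a heat shock gene (−1.31, adjusted p = 0.0258), and *ste11*, the master gene of mating (−0.81, adjusted p = 0.0314). The defining gene of glucose derepression, *fbp1*, was low in every library, at 54.6 ± 6.33 normalized counts in *siw14*∆ and 67.1 ± 9.65 in WT (SD, n = 3 each). With all libraries, 288 of all loci (4.99%) were called lower. The calls in this list fell to 0 without WT replicate 1 (48 loci lower in all) or WT replicate 3 (44 loci). They were also 0 without any 1 of the *siw14*∆ libraries (1 locus each) and with a loess trend over abundance taken out of the libraries (1 locus). They fell to 1 with library totals as the only scaling (31 loci) and came to 5 without WT replicate 2 (717 loci). WT replicate 2 also lay among the *siw14*∆ values of *adh4*, *tdh1*, *gpd3* and *pgk1*. For *pgi1*, *fba1*, *tpi1*, *eno101*, *pyk1* and *adh1* it lay above every *siw14*∆ library. The part of the growth-state difference in the values of the 10 genes was not tested.

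The spread between replicates was unequal. The SD of log2 normalized counts had a median of 0.07 over the 10 genes in *siw14*∆ and 0.23 in WT, against 0.11 in *siw14*∆ and 0.18 in WT over all loci. It was larger in WT for 10 of the 10 genes and for 73.7% of loci. For 6 of the 10 genes and 44.2% of loci, WT replicate 2 lay closer to the average mutant library than to that of WT replicates 1 and 3.

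Relative levels were compared per length, as RPKM, in which counts are scaled by annotated exon length and by the library total over genes. *tpi1* ranked 5th among 6836 loci, at 6103 ± 39.2 RPKM in *siw14*∆ and 6538 ± 196 in WT (SD, n = 3 each). *fba1* ranked 7th, at 5639 ± 287 RPKM in *siw14*∆ and 5523 ± 893 in WT. The ranges of *tpi1* and *fba1* overlapped, although *tpi1* was above *fba1* in all 6 libraries.

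Below them came *pyk1* at 3230 ± 90.2 RPKM in *siw14*∆ and 3083 ± 319 in WT. *pgk1* had 2699 ± 154 RPKM in *siw14*∆ and 2445 ± 108 in WT. *adh1* had 2508 ± 187 RPKM in *siw14*∆ and 2262 ± 255 in WT. The ranges of *pyk1* and *pgk1* overlapped, as did those of *pgk1* and *adh1*, and these 5 genes were among the 100 highest loci.

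*eno101*, at 1754 ± 94.2 RPKM in *siw14*∆ and 1653 ± 281 in WT, and *tdh1*, at 1718 ± 91.8 in *siw14*∆ and 1283 ± 265 in WT, overlapped in their ranges and were among the 150 highest. *pgi1* followed at rank 209 with 778 ± 27.5 RPKM in *siw14*∆ and 906 ± 104 in WT. *adh4* had rank 516, with 215 ± 12.5 RPKM in *siw14*∆ and 260 ± 40.0 in WT. *gpd3* had rank 1210, with 83.4 ± 3.33 RPKM in *siw14*∆ and 85.3 ± 6.54 in WT. From *tdh1* downward the ranges of neighbours in this order did not overlap, and *gpd3* was the lowest of the 10 in every library.

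The 10 genes together held 3.56%, 3.50% and 3.36% of all gene counts in *siw14*∆ replicates 1, 2 and 3, against 3.42%, 3.61% and 3.01% in WT replicates 1, 2 and 3. The mean share was 3.47 ± 0.103% in *siw14*∆ and 3.34 ± 0.306% in WT (SD, n = 3 each), and the groups overlapped. The difference of 0.13 percentage points was smaller than the spread of the WT libraries, and it was −0.04 without WT replicate 3. A share of all counts and a normalized count differ in scale: the TMM factors of 1.11, 1.03 and 1.05 in *siw14*∆, against 0.864, 0.976 and 0.984 in WT, lower the normalized counts of *siw14*∆ relative to its shares.

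Ratios between genes within a library do not depend on that scaling. Of the 45 pairs among the 10 genes, 12 (26.7%) had ratios that did not overlap between genotypes, against 40.4% of all pairs of loci tested. *tdh1* was in 6 of the 12. Its count over that of *tpi1* was 0.449, 0.400 and 0.437 in *siw14*∆, against 0.254, 0.368 and 0.274 in WT. The ratio of *tdh1* to *pgi1* was 1.68, 1.60 and 1.75 in *siw14*∆, against 0.831, 1.47 and 0.988 in WT. The ratios of *tdh1* to *fba1*, *eno101*, *pyk1* and *adh1* were also higher in every *siw14*∆ library than in any WT library.

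The ratio of the isozymes, *tdh1* to *gpd3*, was 21.8, 19.8 and 22.9 in *siw14*∆, against 12.8, 21.1 and 13.9 in WT. It overlapped between genotypes through WT replicate 2, as did the ratios of *tdh1* to *pgk1* and *adh4*. The ratio of *adh1* to *adh4* was 14.0, 11.7 and 11.6 in *siw14*∆, against 8.33, 12.6 and 7.63 in WT, again with WT replicate 2 among the mutant values. These ratios were compared as values and carry no test.

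**Figure D3:**
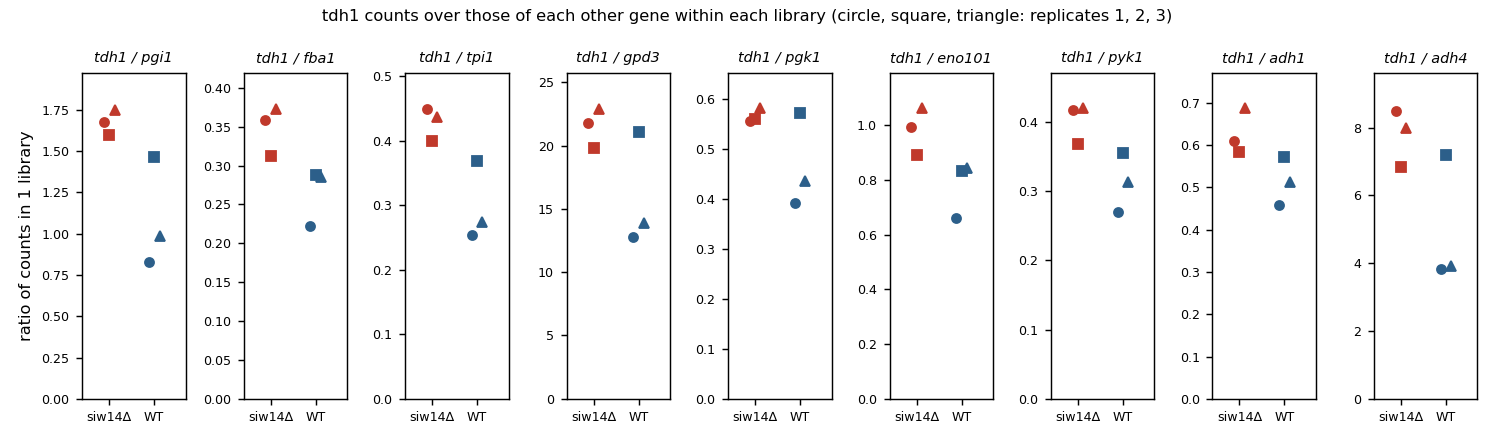
Ratio of *tdh1* counts to the counts of each of the other 9 genes within each library, with *siw14*∆ in red on the left and WT in blue on the right, and circles, squares and triangles for replicates 1, 2 and 3. The groups are apart for *pgi1*, *fba1*, *tpi1*, *eno101*, *pyk1* and *adh1*, and WT replicate 2 (squares) reaches the *siw14*∆ values for *gpd3*, *pgk1* and *adh4*.

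Fold changes over all loci followed abundance. When the loci tested were sorted by mean normalized count and split into 10 bins of equal size, the median log2 fold change was 0.40 in bins 3 and 4 and −0.26 in bin 10, the most abundant, whose lowest mean count was 4906. All of the 10 genes but *gpd3* lay in bin 10, *adh4* at its lower edge. Of these, *pgi1*, *tpi1* and *adh4* lay below the median of the bin, and *fba1*, *tdh1*, *pgk1*, *eno101*, *pyk1* and *adh1* lay above it.

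**Figure D4:**
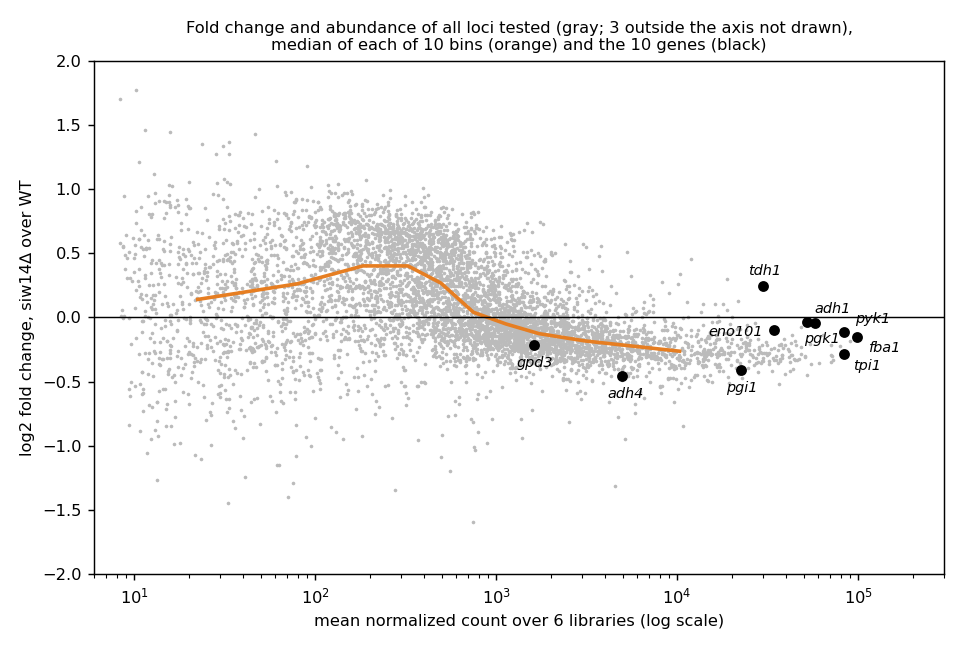
Log2 fold change of *siw14*∆ over WT against mean normalized count on a log scale for all loci tested (gray), with the median of each of 10 bins of equal size (orange) and the 10 genes (black). The medians are 0.40 in bins 3 and 4 and −0.26 in bin 10, and *tdh1* at 0.25 lies above the line while *pgi1* at −0.41 lies below it.

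With a loess curve over abundance subtracted from each library, none of the 10 genes was called, beside 0 loci higher and 1 lower in all. The median log2 fold change of the 10 was then 0.16. With such a curve over exon GC subtracted, *adh4* was called lower and the median of the 10 was 0.14. *tdh1* (log2 fold change 0.51, edgeR adjusted p = 0.0213) and *pgk1* (0.23, adjusted p = 0.0314, range over the alternatives up to 0.934) were called higher. Over all loci that fit called 865 higher and 884 lower. With library totals alone, *tdh1* was called higher (0.42, edgeR adjusted p = 0.0387) and none was called lower, beside 1368 higher and 31 lower over all loci. The median of the 10 was then 0.05 and that of all loci was 0.18. Thus *pgi1* and *adh4* had negative and *tdh1* positive fold changes under each of these scalings, whereas *fba1*, *pgk1*, *eno101*, *pyk1* and *adh1* turned from negative to positive under all of these. *gpd3* turned positive with the GC trend taken out, and *tpi1* did so, at 0.01, with the abundance trend taken out.

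**Figure D5:**
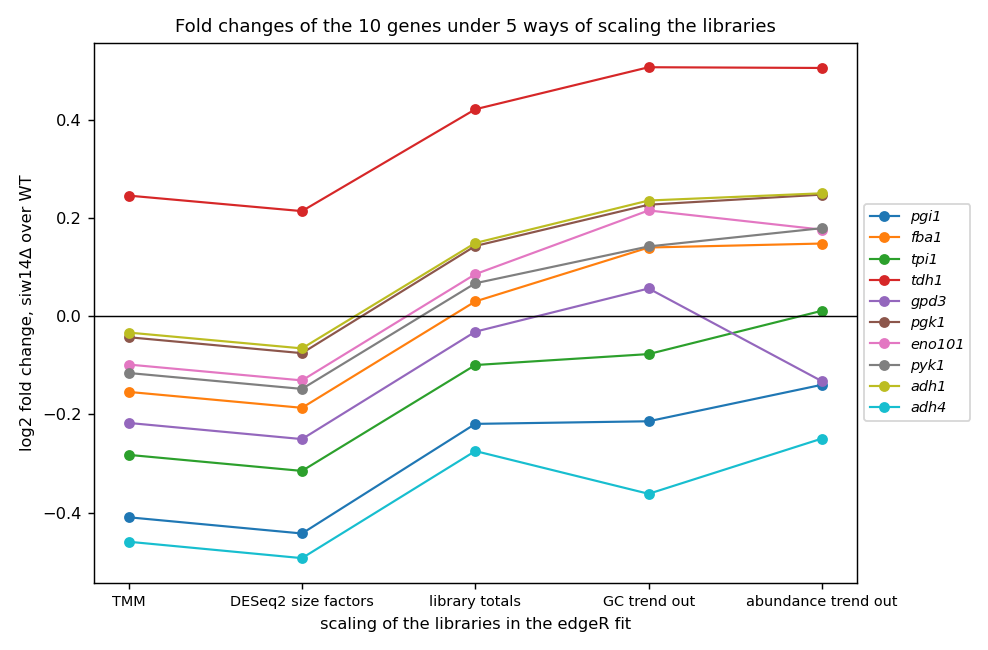
Log2 fold change of *siw14*∆ over WT for each of the 10 genes in edgeR fits with 5 ways of scaling the libraries: TMM, DESeq2 size factors, library totals, and TMM with a GC or an abundance trend taken out. Lines join the values of 1 gene, with *tdh1* on top throughout (0.25 with TMM) and *adh4* at the bottom (−0.46 with TMM), and 5 genes cross 0 between DESeq2 size factors and library totals.

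Other genes of glycolysis and fermentation were read from a list of 12, of which 11 were tested and *pdc102*, a pyruvate decarboxylase gene, was too low to test. None was higher and 1 was lower, beside 16.7% higher and 4.99% lower over all loci. Of the 11 fold changes 8 were negative, and the median was −0.18, against 0.01 over all loci tested. Hexokinase genes, which phosphorylate glucose at entry, had log2 fold changes of −0.27 for *hxk1* (edgeR adjusted p = 0.0684) and −0.16 for *hxk2* (adjusted p = 0.318). *pfk1*, for phosphofructokinase, the committed step, had −0.13 (adjusted p = 0.483), and *gpm1*, for phosphoglycerate mutase, had −0.29 (adjusted p = 0.141). In the branch from pyruvate to acetaldehyde, the major decarboxylase gene *pdc101* had −0.20 (adjusted p = 0.316), *pdc201* −0.18 (adjusted p = 0.563) and *pdc202* 0.23 (adjusted p = 0.293). *adh8*, a further alcohol dehydrogenase gene, had 0.24 (adjusted p = 0.299), SPAC144.17c 0.34 (adjusted p = 0.108), and *fbp1*, for the fructose bisphosphatase of gluconeogenesis, −0.29 (adjusted p = 0.343). None of these 10 passed the test.

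The gene called lower was *eno102* (SPBPB21E7.01c), the second enolase gene. It had 20, 13 and 23 counts in *siw14*∆, against 56, 34 and 47 in WT, and the groups were apart. The log2 fold change was −1.44 (SE 0.34, 95% interval −2.18 to −0.70, edgeR adjusted p = 0.0244), on normalized counts of 17.8 ± 5.74 in *siw14*∆ and 48.5 ± 13.2 in WT (SD, n = 3 each). The call was lost when WT replicate 1 (log2 fold change −1.22, edgeR adjusted p = 0.0544) or any 1 of the *siw14*∆ libraries was left out. Of all loci, these fits called 48 and 1 lower, against 288 with all libraries. The adjusted p of *eno102* ranged from 0.00806 to 0.101 over 14 alternatives. DESeq2 gave it no adjusted p, and the 2 genes of this list that DESeq2 called lower were *hxk1* and *gpm1*. *eno101* held 1775, 2960 and 1342 counts per *eno102* count in *siw14*∆, against 639, 1118 and 561 in WT, so *eno102* gave a minute part of the enolase counts in every library. An antisense noncoding locus, SPNCRNA.1302, overlaps 1232 bases of *eno102* and had 60, 46 and 56 counts in *siw14*∆, against 80, 66 and 71 in WT. The sources used here do not say whether counting used strand, so the counts of these overlapping loci may be mixed.

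Genes of pathways that adjoin glycolysis were read from 3 lists. Of their 27 genes, 12 were lower and 0 higher, beside 4.99% lower and 16.7% higher over all loci. In the list of glycerol and dihydroxyacetone genes, 3 of 6 were lower, and the list's median log2 fold change was −0.52: *gpd2*, for glycerol phosphate dehydrogenase (−0.45, edgeR adjusted p = 0.0375), and the dihydroxyacetone kinase genes *dak1* (−0.49, adjusted p = 0.0440) and *dak2* (−0.77, adjusted p = 0.0417). The list summed to 20968, 17688 and 19773 normalized counts in *siw14*∆, against 31348, 18434 and 26139 in WT, with WT replicate 2 among the mutant libraries as in the list of growth state. In the list of pyruvate and acetaldehyde fates, 2 of 9 were lower, with a list median of −0.28: *lat1*, the acetyltransferase of the pyruvate dehydrogenase complex (−0.45, adjusted p = 0.0358), and *dld1*, its lipoamide dehydrogenase (−0.54, adjusted p = 0.0300). The other genes of that complex did not pass the test, with −0.34 for *pda1* (adjusted p = 0.0627), −0.28 for *pdb1* (adjusted p = 0.0842) and 0.24 for *pdx1* (adjusted p = 0.124). Every *siw14*∆ library lay below every WT library for *lat1*, *dld1*, *pda1* and *pdb1*, and above every one for *pdx1*. Over all loci tested, 46.9% did not overlap.

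In the tricarboxylic acid cycle, 7 of 12 genes were lower, all 12 fold changes were negative, and the median was −0.32. Over all loci the median was −0.18 in abundance bin 9 and −0.26 in bin 10. All of the cycle genes but *idh1* lay in bin 9 or bin 10, with *kgd2*, *fum1* and *idh2* in bin 9 and *kgd1* in bin 10. The list summed to 54746, 57584 and 57150 normalized counts in *siw14*∆, against 83294, 62317 and 70085 in WT, with WT replicate 2 the WT library nearest to *siw14*∆. The part of the growth-state difference in these lists was not tested. The 4 with the smallest p were *kgd2*, of the oxoglutarate dehydrogenase complex (−0.59, edgeR adjusted p = 0.0345), *fum1*, fumarase (−0.46, adjusted p = 0.0355), *idh2*, of isocitrate dehydrogenase (−0.37, adjusted p = 0.0366), and *kgd1*, also of the oxoglutarate dehydrogenase complex (−0.32, adjusted p = 0.0435). In the main fit 12 of the 27 genes were lower, beside 288 of all loci (4.99%). DESeq2 called 19 of the 27 lower, beside 739 of all loci. With the abundance trend taken out none of the 27 was called, and 1 locus in all was lower. Without WT replicate 1 the count was 2, beside 48 loci in all, and without WT replicate 3 it was 3, beside 44. Without any 1 of the *siw14*∆ libraries it was 0, beside 1 locus each, and without WT replicate 2 it was 20, beside 717.

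Sequence features of the 10 genes, which the choice of members did not use, were read from the annotation of build ASM294v3. The effective number of codons, which is low where a gene uses few of its synonymous codons, had a median of 30.2 over the 10 genes and 49.9 over 4860 coding genes. *fba1*, at 28.1, had the lowest value of all coding genes, *pgk1* the next lowest at 28.9, and *eno101* ranked 4th at 29.4. *pgi1* (37.2) and *adh4* (43.0), the genes called lower, had the highest values of the 10. Exon GC content was also lowest for these genes among the 10, at 42.8% for *pgi1* and 40.3% for *adh4*, with a median of 47.8% over the 10 genes and 37.2% over coding genes.

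Of the 10 genes, 9 have 1 exon and *gpd3* has 2. *pyk1* and *adh4* lie on chromosome I, *tpi1* and *adh1* on chromosome III, and the other 6 on chromosome II. The 6-base word TATAAA, searched on both strands from 250 bases before to 50 bases after the annotated start, was found for 5 of the 10 genes (*tdh1*, *gpd3*, *pgk1*, *pyk1* and *adh1*) and in 48.1% of 5107 coding genes. The windows of *pgi1*, *fba1*, *tpi1*, *eno101* and *adh4* did not hold it.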

How the data were processed

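Poly(A)+ RNA of 3 *siw14*∆ and 3 WT cultures was sequenced with a strand-specific kit. Paired reads, 51 bases long, were aligned by the authors to build ASM294v2 with HISAT2 2.1.0 and counted over exons with HTSeq 0.10.0, with SAMtools for conversion; the sources used here do not give the strand setting. The deposited table holds raw counts. Its 5 lines that name no gene, filled for *siw14*∆ only (35.8%, 31.6% and 34.7% of counts in replicates 1, 2 and 3), were left out. A deposited DESeq2 table holds the authors' own comparison (fold changes, p-values and mean levels) and was not used.

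Here, filterByExpr kept 5774 of 6988 loci, and edgeR 4.0.16 (R 4.3.3; TMM, glmQLFit, glmQLFTest, genotype only) gave fold changes and Benjamini-Hochberg adjusted p-values over all of these. The SE is the log2 fold change over the root of F, and intervals use the total degrees of freedom (median 11.0). Lengths, GC and codon values come from ASM294v3, matched by 6836 identifiers; as it is not the authors' build, coordinates and sequences are not printed.

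All 10 genes, every other gene of glycolysis and fermentation, and up to 4 genes past the threshold with the smallest p from each further list were to be named. The members and lists were chosen with earlier results of these data known. *lsc1* was left out of its list because the annotation gives that symbol to a cyclin. Alternatives were DESeq2 1.42.0, limma-voom (limma 3.58.1), other size factors, other filters (1 count in any library, 10 in all), loess trends (span 0.3), a replicate block and leaving out each library. Scripts were tested on simulated data.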

Additional observations from a re-analysis of the deposited data

How the results depend on the processing

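The log2 fold changes of *pgi1* and *adh4* were negative and that of *tdh1* positive under all 15 alternatives. *pgi1* ranged from −0.51 to −0.14 and passed the threshold under 5, *adh4* from −0.61 to −0.25 under 7, and *tdh1* from 0.18 to 0.51 under 3. The number of the 10 genes called higher (0) was 1 with library totals, 2 with the GC trend taken out, and 0 to 1 when single libraries were left out. The number called lower (2) was 1 with limma-voom, 0 with library totals, 0 with the abundance trend taken out, 1 with the GC trend taken out, and 0 to 3 when single libraries were left out. Correlations of deviations between samples of the same replicate number were −0.26, 0.18 and −0.16 for numbers 1, 2 and 3. With 3 libraries per genotype these cannot decide whether the numbers pair the samples. With a replicate block 0 of the 10 genes, 4 of the 27 genes of adjoining pathways and 156 loci were called lower.

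Directions turned for genes not past the test. With library totals the log2 fold changes were 0.03 (*fba1*), 0.14 (*pgk1*), 0.0855 (*eno101*), 0.067 (*pyk1*) and 0.15 (*adh1*). With the abundance trend taken out they were 0.15 (*fba1*), 0.011 (*tpi1*), 0.25 (*pgk1*), 0.18 (*eno101*), 0.18 (*pyk1*) and 0.25 (*adh1*), and with the GC trend taken out 0.14 (*fba1*), 0.0564 (*gpd3*), 0.23 (*pgk1*), 0.22 (*eno101*), 0.14 (*pyk1*) and 0.24 (*adh1*). Leaving out single libraries gave −0.0727 to 0.0697 for *pgk1*, −0.2147 to 0.0045 for *eno101* and −0.0987 to 0.0366 for *adh1*; all were positive without WT replicate 1, and *adh1* also without WT replicate 2 (0.02) or *siw14*∆ replicate 3 (0.01). The causes were not tested.

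Over all loci, 964 were higher, against 1368 with library totals, 865 with the GC trend taken out and 0 with the abundance trend taken out. In the main fit 288 were lower, against 739 with DESeq2, 495 with DESeq2 size factors and 31 with library totals. With the abundance trend taken out 1 was lower, and with the GC trend taken out 884 were. Leaving out single libraries gave 0 to 1204 higher and 1 to 717 lower. Of the other genes of glycolysis and fermentation, 2 were lower with DESeq2 (*hxk1* and *gpm1*, *eno102* having no adjusted p), 2 with DESeq2 size factors, 0 with the abundance trend taken out and 0 to 2 when single libraries were left out. In adjoining pathways 1 gene was higher with library totals, and 19 were lower with DESeq2, 1 with library totals, 0 with the abundance trend taken out and 0 to 20 when single libraries were left out. The share of library counts, *siw14*∆ minus WT, was 0.129 percentage points with all libraries and −0.0388 (without WT replicate 3) to 0.260 (without WT replicate 2) when single libraries were left out. The SE of the 10 log2 fold changes ran from 0.11 to 0.15, and 8 of their intervals lay within 1.5-fold of no change.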
